A study of Saccharomyces cerevisiae with 9 samples.

Results

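The earliest transcript response to inhibition of the yeast kinases Ypk1 and Ypk2 was read from 2 of 9 dual-channel arrays, those hybridised with RNA from cells held with inhibitor for 15 min. On each array, polyA RNA of AS cells (Cy5) was compared with polyA RNA of WT cells (Cy3). AS stands for an analog-sensitive kinase, a mutant whose ATP pocket admits a bulky inhibitor that other kinases exclude. The AS Ypk1 and WT Ypk1 cells of the first array had received 2,3-DMB-PP1 (also spelled 2,3-DMB-PPI in the labels) at 0.5 µM, and the AS Ypk2 and WT Ypk2 cells of the second had received 3-MB-PPI at 1 µM. All cells of the study, WT cells included, were ypk1 delta ypk2 delta, carried their only Ypk kinase on a plasmid and grew in SCD-Leu medium. The other arrays used here were AS against WT cells of the same kinase at 30 and 60 min and at 0 min, and WT Ypk2 cells against WT Ypk1 cells. There was 1 array per condition and no dye swap, so kinase, inhibitor and dose cannot be told apart at any time. The direction, AS over WT, was read from the array of the WT strains and is assumed for the others.

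Ypk1 and Ypk2 are protein kinases of the AGC family that are switched on by the TOR complex TORC2 at the plasma membrane. They are known for raising sphingolipid synthesis, by phosphorylating the ceramide synthase subunits Lac1 and Lag1 and the inhibitors Orm1 and Orm2, and for roles in lipid flipping, endocytosis and cell wall integrity. Cells need at least 1 of the pair to grow, which is why the analog-sensitive form is used to shut the kinase off quickly.

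Genes were sorted by the ratio of AS over WT on the 2 arrays at 15 min, on the log2 scale and relative to each array's median, at a threshold of 1, which is 2.0-fold. Of 6268 features, 6266 had a value on both arrays. A total of 215 features were higher in AS cells on both arrays, which is 3.43% of those measured, and 90 were lower on both, which is 1.44%. Another 525 were higher and 702 lower on the Ypk1 array only, and 367 were higher and 123 lower on the Ypk2 array only. Only 28, or 0.447%, passed on both arrays with opposite signs, and 4216 passed on neither. These values chose the classes and are given as a description, with no test.

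The 2 arrays differed in how far they spread. The Ypk1 array had 757 features past the threshold on the higher side (12.1%) and 803 on the lower side (12.8%), while the Ypk2 array had 593 on the higher side (9.46%) and 230 on the lower side (3.67%). The shared higher genes were 28.4% of the higher genes of the Ypk1 array and 36.3% of those of the Ypk2 array. The shared lower genes were 11.2% of the lower genes of the Ypk1 array and 39.1% of those of the Ypk2 array. Most lower features of the Ypk1 array thus stood below the threshold on that array alone. The balance of higher and lower genes depends on centring. The deposited medians were −0.52 on the Ypk1 array and −0.20 on the Ypk2 array, and higher genes made up 48.5% and 72.1% of the genes past the threshold with centring, against 15.5% and 48.1% without it. Quantile normalization gave 58.6% and 58.5%, and subtraction of the 0 min arrays 40.9% and 54.7%. Everything below is relative to the median feature of its array.

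**Figure D1:**
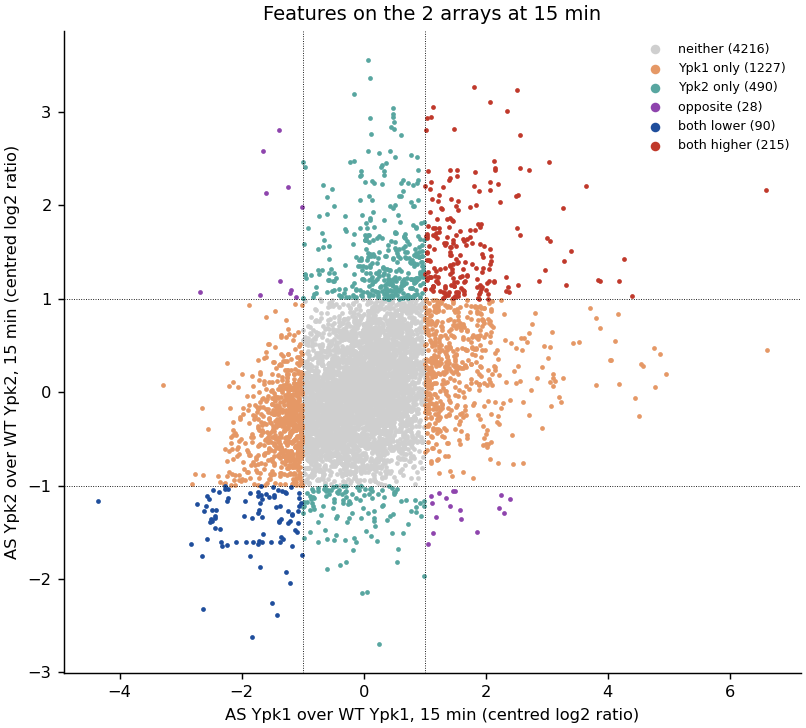
Centred log2 ratio of AS over WT at 15 min on the Ypk1 array (horizontal axis) and on the Ypk2 array (vertical axis), 1 point per feature, with dotted lines at the threshold of 1 in each direction and colours for the classes. The 215 features higher on both arrays lie in the upper right, the 90 lower on both in the lower left, and 28 lie in the opposite corners.

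The plasmid-borne kinase genes were measured first. YPK1 (YKL126W), the gene supplied on the plasmid of the Ypk1 series, had ratios of 0.73, 0.82, 2.44 and 1.55 at 0, 15, 30 and 60 min there. In the Ypk2 series, whose cells lack it, the ratios were −0.10, 0.20, 0.11 and −0.62. YPK2 (YMR104C) had 1.06, 1.36, 1.53 and 1.36 in the Ypk2 series, and 0.25, 1.42, 0.52 and 0.94 in the Ypk1 series, whose cells lack it. The gene thus fell among the 215 shared higher features although AS and WT cells of the Ypk1 series are both deleted for it, and a ratio past the threshold on a single array need not come from a transcript of the named gene. LEU2 (YCL018W), an enzyme of leucine synthesis in cells grown without leucine, was also in this class. It had 1.44 (Ypk1 series) and 1.45 (Ypk2 series) at 0 min, then 2.08 and 1.41 at 15 min, and 2.46 between the WT strains.

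Among the shared higher genes, those furthest past the threshold on both arrays were named. COG2 (YGR120C), a subunit of a Golgi tethering complex, had 2.51 on the Ypk1 array and 3.24 on the Ypk2 array. YPT53 (YNL093W), a Rab GTPase of the endocytic pathway, had 2.70 and 2.38 at 15 min. ALD4 (YOR374W), the mitochondrial aldehyde dehydrogenase, had 3.03 and 2.47, and QDR2 (YIL121W), a multidrug exporter of the plasma membrane, had 2.34 and 3.01. Each of these 4 genes lay between −0.21 and 0.80 at 0 min and above 1 on all 4 arrays at 30 and 60 min. MLO127 (YJR039W), SRY1 (YKL218C), an amino acid dehydratase, and YNL208W were also above 1 on the 4 later arrays. Their lower value of the pair at 15 min was 2.41, 2.15 and 2.14. Between the WT strains, with no inhibitor, ALD4, YPT53, MLO127 and YNL208W were also past the threshold, at 1.76, 1.32, 1.45 and 1.26. COG2, QDR2 and SRY1 were at 0.39, 0.12 and 0.83 there.

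Other leading shared genes were much lower at the later times. AAD10 (YJR155W), a putative aryl alcohol dehydrogenase, had 2.56 on the Ypk1 array and 2.76 on the Ypk2 array at 15 min. At 30 and 60 min it had 0.31 and 1.14 in the Ypk1 series and 0.10 and −0.21 in the Ypk2 series. ATG14 (YBR128C), a subunit of the lipid kinase complex that starts autophagy, had 3.64 and 2.21 at 15 min, and ratios between −0.02 and 0.65 at the later times. HTS1 (YPR033C), the histidyl-tRNA synthetase, had 1.09 and 0.50 at 0 min, 6.60 and 2.17 at 15 min, and −0.25 and 1.84 in the Ypk1 series and 1.17 and −0.46 in the Ypk2 series later on. These 3 genes did not pass the test at 30 and 60 min described below.

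**Figure D2:**
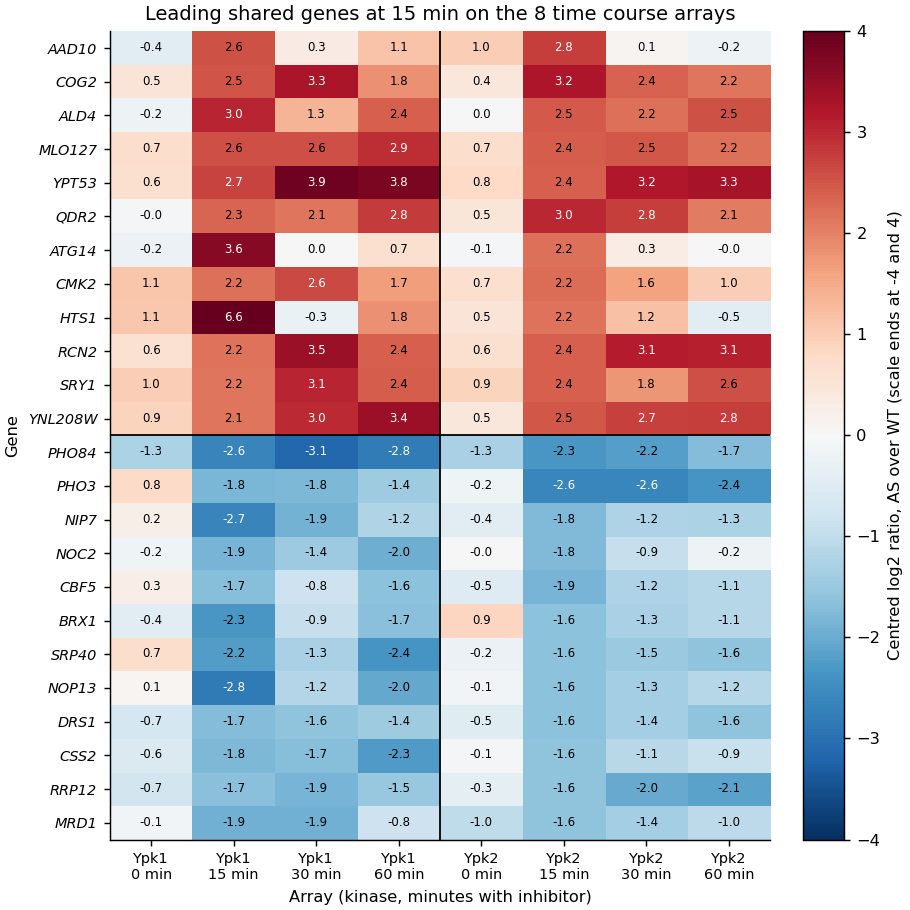
Centred log2 ratio of AS over WT for the 12 leading shared higher genes (top) and the 12 leading shared lower genes (bottom) on the 8 time course arrays, Ypk1 series left and Ypk2 series right, minutes with inhibitor along the axis. Most rows keep their colour at 30 and 60 min. ATG14 is past the threshold at 15 min only, and AAD10 and HTS1 are highest at 15 min, with single later values of up to 1.84.

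Transcripts of the calcium response had strong shared members. Calcineurin is a phosphatase that calcium activates and that drives its own set of genes through the factor Crz1. Of 18 genes on that list, 4 were higher on both arrays (RCN2, CMK2, RCN1 and ENA1), against 3.43% of all features. None was lower on both, against 1.44%. RCN2 (YOR220W) and RCN1 (YKL159C), regulators of calcineurin, had 2.16 and 2.07 on the Ypk1 array and 2.40 and 2.16 on the Ypk2 array. CMK2 (YOL016C), a calmodulin-dependent kinase, had 2.21 and 2.23. ENA1 (YDR040C), the sodium pump, had 1.52 and 1.43. CMK1 (YFR014C), the other calmodulin-dependent kinase, was at 3.06 on the Ypk1 array and 0.49 on the Ypk2 array. The list's median was 0.52 on the Ypk1 array and 0.00 on the Ypk2 array, so the shared ratios were those of a few strong members and not of the list.

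Genes of the cell wall integrity pathway, in which the GTPase Rho1 and the kinase Slt2 answer to wall stress, showed a similar picture. Of 34 listed genes, 5 were higher on both arrays (YPS1, NCW2, CHS1, SLT2 and BAG7), against 3.43% of all features. None was lower on both, against 1.44%. YPS1 (YLR120C), a surface protease, had 2.49 and 2.10. NCW2 (YLR194C), a wall mannoprotein, had 2.23 and 2.03, and CHS1 (YNL192W), a chitin synthase, 1.81 and 2.21. SLT2 (YHR030C) itself had 1.55 on the Ypk1 array and 1.96 on the Ypk2 array. At 0 min in the Ypk1 and Ypk2 series, YPS1 was at 0.44 and 1.13 and NCW2 at 1.13 and 0.48. CHS1 was at 0.61 and 0.53 at 0 min, and SLT2 at −1.23 and 0.52. Of the 2 kinases that activate Slt2, MKK1 was at −1.02 on the Ypk1 array and at 1.99, near SLT2, on the Ypk2 array. MKK2 was past the threshold on the lower side of the Ypk1 array only. The list's medians, 0.29 and 0.42, became −0.23 and 0.23 without centring, and −0.01 and 0.15 with the 0 min arrays subtracted. Between the WT strains, with no inhibitor, the list's median was 0.42.

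The general stress genes, which the factors Msn2 and Msn4 control, gave the most shared higher genes of any list. Of 51 genes, 13 were higher on both arrays (against 3.43% of all features) and none was lower on both (against 1.44%). On the Ypk1 array 23 were higher and 3 lower, and on the Ypk2 array 19 were higher and 1 lower. Their medians were 0.91 and 0.55, and stayed positive without centring at 0.39 and 0.36. Between the WT strains, with no inhibitor, the list's median was 0.62. Beside ALD4, the strongest were PGM2 (YMR105C), phosphoglucomutase, at 3.01 and 1.66, GLK1 (YCL040W), glucokinase, at 2.53 and 2.11, and HOR7 (YMR251W-A) at 2.51 and 1.76. At 0 min GLK1 and HOR7 were already at 1.39 and 1.09 in the Ypk1 series, and at 0.31 and 0.93 in the Ypk2 series. PGM2 was at 0.42 and −0.03 at 0 min. Between the WT strains PGM2, GLK1 and HOR7 were at 0.82, 1.37 and 1.40. Related lists were uneven in their shared higher members. GPD1 (YDL022W), the glycerol synthesis enzyme of the osmotic response, had 2.08 and 1.54 and was 1 of 4 such genes among 19. Trehalose and glycogen genes had 3 of 21 on the higher side of both arrays. Heat shock chaperones had 2 of 24 and oxidative stress genes 1 of 19 (against 3.43% of all features). No member of these lists was lower on both arrays (against 1.44%). Several genes stand on more than 1 list.

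Many shared lower genes were those that build ribosomes. Of 100 ribosome biogenesis genes, 31 were lower on both arrays (against 1.44% of all features) and none was higher on both (against 3.43%). On the Ypk1 array 59 were lower (against 12.8%), and on the Ypk2 array 33 (against 3.67%). Their medians were −1.24 and −0.70. Of the 12 leading shared lower genes, NIP7, NOC2, CBF5, BRX1, SRP40, NOP13, DRS1, RRP12 and MRD1 encode nucleolar proteins or assembly factors of ribosomal subunits, and the others were PHO84, PHO3 and CSS2 (YFR020W). NOP13 (YNL175C) had −2.83 on the Ypk1 array and −1.63 on the Ypk2 array. NIP7 (YPL211W) had −2.65 and −1.76, and CBF5 (YLR175W), the pseudouridine synthase of ribosomal RNA, had −1.70 and −1.87. At 0 min none of these 3 was beyond 0.51 in either direction. Other biogenesis genes with large ratios were RLP24 (YLR009W) at −2.58 and −1.57 and RLP7 (YNL002C) at −2.73 and −1.20.

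Subunits of RNA polymerases I and III, which transcribe ribosomal and transfer RNA, leaned the same way. Of 38, 5 were lower on both arrays (against 1.44% of all features): RPA43, RPC31, RPA190, RPC40 and RPA49. RPA43 (YOR340C) had −2.44 and −1.45, and RPA190 (YOR341W), the largest subunit of polymerase I, −1.71 and −1.59. RPA12 (YJR063W), a small subunit of polymerase I, was the exception, at 1.51 and 1.99. A few genes outside ribosome synthesis were as low. PHO84 (YML123C), the high-affinity phosphate transporter, had −1.26 and −1.29 at 0 min, and −2.64 and −2.33 at 15 min. The acid phosphatases PHO3 (YBR092C) and PHO5 (YBR093C) had −1.83 and −1.27 on the Ypk1 array, and −2.62 and −1.92 on the Ypk2 array. Their relative PHO12 (YHR215W) was on the other side, at 1.94 and 1.29. In all, 4 of 26 phosphate genes were lower on both arrays (against 1.44% of all features) and 2 were higher (against 3.43%). MEP2 (YNL142W), an ammonium transporter, had −2.42 and −1.26, and −1.95 between the WT strains. Of 29 genes of nitrogen catabolite repression, 2 were lower on both arrays (against 1.44%). Another 2 were higher (against 3.43%), GLN1 at 2.07 and 2.26 and PUT1 at 1.55 and 1.03. The iron uptake pair FTR1 (YER145C) and FET3 (YMR058W) had −1.68 and −1.08 on the Ypk1 array, and −1.10 and −1.27 on the Ypk2 array. Only these 2 of 28 iron genes were lower on both (against 1.44%), none was higher (against 3.43%), and the list's medians were 0.03 and −0.06.

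**Figure D3:**
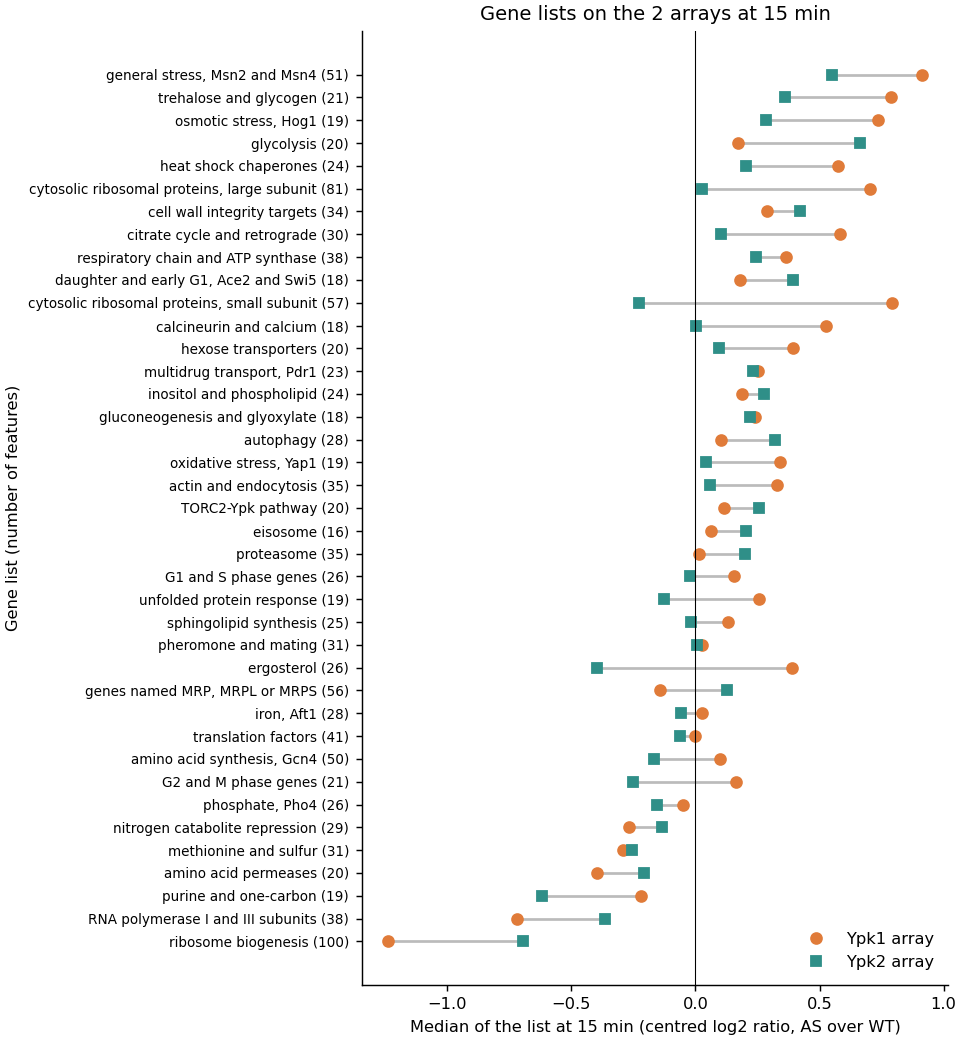
Median centred log2 ratio of AS over WT at 15 min for each gene list with 15 or more features, on the Ypk1 array (circles) and the Ypk2 array (squares), with the number of features in brackets. General stress genes have the highest median of the Ypk1 array (0.91, with 0.55 on the Ypk2 array) and ribosome biogenesis the lowest of both arrays (−1.24 and −0.70), while ribosomal protein genes are split between the arrays.

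Ribosomal protein genes, which are usually co-regulated with the biogenesis genes, stood apart from them on the Ypk1 array at 15 min. On the Ypk1 array, the 138 genes of the cytosolic ribosome had a median of 0.74. Of these, 54 were past the threshold on the higher side (against 12.1% of all features) and 8 on the lower side (against 12.8%). On the Ypk2 array their median was −0.06, with 10 higher (against 9.46%) and 18 lower (against 3.67%). The Ypk1 value was above the Ypk2 value for 102 of 138 genes (73.9%), against 43.9% of all features. The starting point was alike, since the medians at 0 min were 0.69 and 0.62. Compared with its own 0 min array, the Ypk2 value at 15 min was below for 118 of 138 genes (85.5%, against 51.4% of all features), and the Ypk1 value for 56 (40.6%, against 49.2%). By 30 and 60 min the Ypk1 medians were −0.06 and −0.12, and the Ypk2 medians −0.35 and −0.50. Of the 100 ribosome biogenesis genes, 80 lay below their own 0 min value at 15 min on each array, a share close to that of the ribosomal protein genes on the Ypk2 array and not on the Ypk1 array. The median difference of 15 min minus 0 min was 0.20 on the Ypk1 array and −0.69 on the Ypk2 array for ribosomal protein genes, and −0.48 on the Ypk2 array for biogenesis genes. Many ribosomal proteins are encoded by near-identical gene pairs, whose spots may share signal. Without centring, the medians of the large and small subunit genes were 0.18 and 0.27 on the Ypk1 array and −0.17 and −0.42 on the Ypk2 array. With 1 array per kinase the difference at 15 min has no replicate check.

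**Figure D4:**
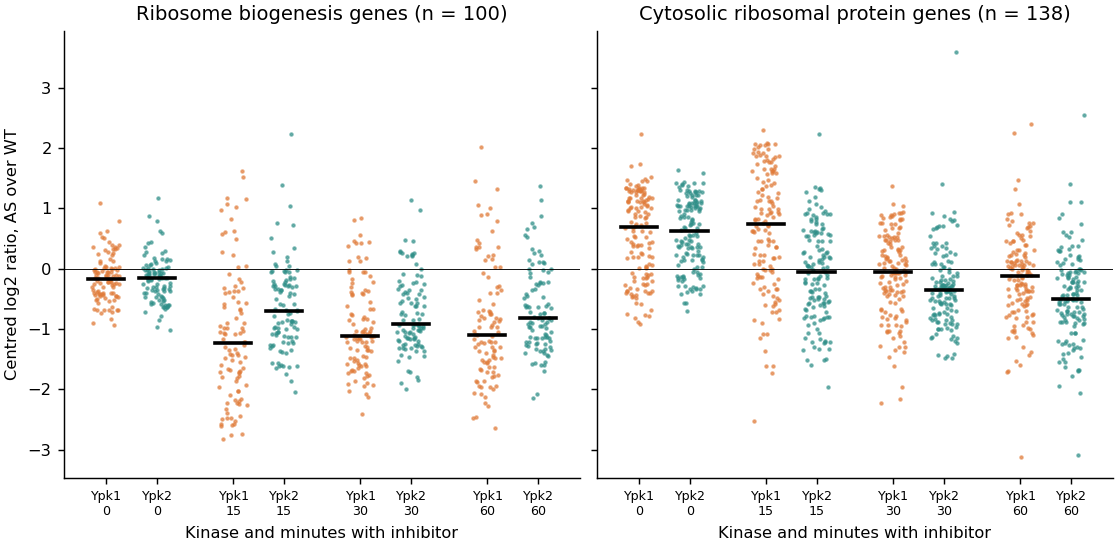
Centred log2 ratio of AS over WT for 100 ribosome biogenesis genes (left) and 138 cytosolic ribosomal protein genes (right) on each time course array, 1 point per gene, orange for Ypk1 and green for Ypk2, with black bars at the medians. Biogenesis medians are at −0.70 or lower on all arrays from 15 min on, whereas the ribosomal protein median at 15 min is 0.74 on the Ypk1 array and −0.06 on the Ypk2 array.

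The 28 genes with opposite signs were not spread evenly. A total of 17 were higher on the Ypk1 array and lower on the Ypk2 array, and 11 the other way. Of the 17, 7 were cytosolic ribosomal protein genes, and none of the 11 was. Such genes were 138 of the 6266 features. At 0 min these 7 were already at 1.00 to 2.23 in the Ypk1 series, and at 0.34 to 1.04 in the Ypk2 series. RPS0B (YLR048W), a small subunit protein, had 2.30 on the Ypk1 array and −1.29 on the Ypk2 array, and RPS6B (YBR181C) had 1.85 and −1.50. GDH1 (YOR375C), which makes glutamate from ammonium, had 1.58 and −1.26. In the other direction, OPT2 (YPR194C), a transporter of the oligopeptide family, had −1.38 and 2.81, AGE1 (YDR524C), a GTPase activator of Golgi traffic, −1.60 and 2.14, and YIL108W −1.65 and 2.59. None of the 5 leading genes that could be tested passed at 30 and 60 min in either series. GDH1 lacked a value at 60 min in the Ypk2 series and was not tested. The medians of the class were 1.12 and −1.09 at 15 min, −0.10 and −0.30 at 30 min, and −0.06 and −0.32 at 60 min.

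For genes past the threshold on a single array, the sign on the other array was counted. It was the same for 72.4% of the 525 genes higher on the Ypk1 array only and for 81.5% of the 702 lower there. It was the same for 76.6% of the 367 genes higher on the Ypk2 array only and for 61.8% of the 123 lower there. Over all features 66.4% had the same sign on both arrays. That share is not a like comparison, because the single-array classes leave out by rule the 215 and 90 genes past the threshold on both arrays with 1 sign. The ratio on the other array was under 0.5 in size for 317, 442, 188 and 70 of these genes, in the same order. Leading examples were therefore taken from genes under 0.5 on the other array.

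On the higher side of the Ypk1 array these were YCR050C at 4.95, KAP122 (YGL016W), a nuclear import carrier, at 4.78, DDI3 (YFL061W), which has a near-identical copy, at 4.77, and PBP1 (YGR178C), a binder of the poly(A)-binding protein, at 4.58. SLM6 (YBR266C), YPL261C, SAS5 (YOR213C), a subunit of a histone acetyltransferase, and YBR032W followed at 3.81 or more. None of these 8 genes passed the test at 30 and 60 min, and at 30 min their Ypk1 ratios lay between −0.81 and 0.68. At 60 min YPL261C was at 3.06, DDI3 at 1.61 and YCR050C at 1.04 in the Ypk1 series, and the other 5 were between −0.43 and 0.68. On the lower side some leading genes stayed low. PFK27 (YOL136C), which makes the activator of glycolysis fructose-2,6-bisphosphate, had −2.55 at 15 min and −1.76 and −1.49 later in the Ypk1 series. UTP10 (YJL109C), a factor of small subunit processing, had −2.20, −2.08 and −1.99. YIL082W-A, BRR6 (YGL247W), RBA50 (YDR527W), TRS33 (YOR115C), HMS2 (YJR147W) and EFM6 (YNL024C) were between −2.65 and −2.14 at 15 min. Of these 8 lower genes, 5 passed at 30 and 60 min in the Ypk1 series, and 3 also in the Ypk2 series, UTP10 among them.

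The genes past the threshold on the Ypk2 array only were led by others. NUP84 (YDL116W) and ASM4 (YDL088C), parts of the nuclear pore, had 3.55 and 2.89. PMC1 (YGL006W), the vacuolar calcium pump, had 1.73 at 0 min and 3.37 at 15 min there, against 2.09 and 0.10 in the Ypk1 series. TRM3 (YDL112W), a transfer RNA methyltransferase, had 3.19 on the Ypk2 array. HHO1 (YPL127C), the linker histone, had 2.98, and MSS4 (YDR208W), the kinase that makes the plasma membrane lipid PI(4,5)P2, 2.95. YPL060C-A had 3.04 and ATM1 (YMR301C), a mitochondrial exporter, 2.94. PMC1 lacked a value at 30 min in the Ypk1 series and was not tested. Of the other 7 genes none was called higher than the median feature at 30 and 60 min. ATM1 was called lower (−0.92 ± 0.20 in the Ypk2 series, SE, adjusted p = 0.0371, limma). On the lower side, HUG1 (YML058W-A), an inhibitor of ribonucleotide reductase, was at −2.69 at 15 min only. CLB2 (YPR119W), the mitotic cyclin, had −1.85 on the Ypk2 array and −0.39 on the Ypk1 array at 15 min. By 30 and 60 min it had −2.19 and −2.09 in the Ypk1 series and −1.20 and −1.10 in the Ypk2 series. GIS2 (YNL255C), SUL2 (YLR092W), INA1 (YLR413W), YOL029C, RPL13A (YDL082W) and ROF1 (YHR177W) lay between −2.14 and −1.58 on the Ypk2 array. Of the 7 that could be tested, YOL029C being left out for a missing value, 5 passed at the later times in each series.

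Whether the first response lasted was asked of the 30 and 60 min arrays, which played no part in the sorting. A mean ratio per kinase was fitted to the 30 and 60 min arrays with limma, adjusted by Benjamini-Hochberg over 6222 features. As each series has 1 array per time, the p-values reflect how far 2 times differ, perhaps within 1 culture, and not how far cultures differ. In the Ypk1 series 646 features were called higher (10.4%) and 517 lower (8.31%). The Ypk2 series had 465 higher (7.47%) and 291 lower (4.68%). Without centring, the share of higher calls among all calls was 37.7% and 22.7%, against 55.5% and 61.5% with it. In both series together 335 were called higher (5.38%) and 176 lower (2.83%).

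Of the 212 shared higher genes that could be tested, 135 were called higher in the Ypk1 series, 129 in the Ypk2 one and 111 in both. None was called lower. Of the 90 shared lower genes, 75 were called lower in the Ypk1 series, 52 in the Ypk2 series and 49 in both, and none higher. For the classes of a single array, calls on the same side were counted for both kinases, with the class's own kinase first. Ypk1-only higher genes had 123 (23.7%) and 78 (15.0%) calls among 520, against 10.4% and 7.47% of all features. Ypk1-only lower genes had 176 (25.1%) and 69 (9.83%) among 702, against 8.31% and 4.68%. Ypk2-only higher genes had 88 (24.2%) and 81 (22.3%) among 363, against 7.47% and 10.4%. Ypk2-only lower genes had 33 (27.3%) and 45 (37.2%) among 121, against 4.68% and 8.31%. This last class thus had more calls with the other kinase than with its own. Of the 26 tested genes with opposite signs, 1 was called higher and 3 lower in the Ypk1 series, and 3 lower in the Ypk2 series. Without the test, 81 of 212 shared higher genes (38.2%, against 2.89% of all features) and 32 of 90 shared lower genes (35.6%, against 1.11%) were past the threshold on all 4 later arrays. On both later arrays of their own series stood 71 of 525 Ypk1-only higher genes (13.5%, against 5.33%), 93 of 702 Ypk1-only lower genes (13.2%, against 3.83%), 71 of 364 Ypk2-only higher genes (19.5%, against 5.25%) and 18 of 121 Ypk2-only lower genes (14.9%, against 2.63%).

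Part of the shared higher class preceded the inhibitor. At 0 min, 43 of its 215 genes were past the threshold on the higher side in the Ypk1 series (20.0%, against 4.39% of all features) and 54 in the Ypk2 series (25.1%, against 4.74%). On the array of the WT strains, with no AS kinase and no inhibitor, 45 of the 215 were past it on that side (20.9%, against 2.74%). Of the 90 shared lower genes, 1 (against 1.6% of all features) and 2 (against 0.0957%) were past it on the lower side. When the 0 min array was used as the baseline, 4 features passed at 30 and 60 min for Ypk1 and 0 for Ypk2 (limma; 1004 and 707 at an unadjusted p under 0.05).

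Named members gave the size of the later ratios, from which the 0 min values are not taken off. YPT53 had a mean later ratio of 3.84 ± 0.20 for Ypk1 and 3.26 ± 0.20 for Ypk2 (SE, n = 2 arrays each; limma, adjusted p = 0.00247 and 0.00623). RCN2 had 2.93 ± 0.29 and 3.11 ± 0.29 (adjusted p = 0.00609 and 0.00785, limma). Both genes were between 0.60 and 0.80 at 0 min. YPS1 had 3.05 ± 0.21 and 3.09 ± 0.21 (adjusted p = 0.00359 and 0.00623, limma), after 0.44 and 1.13 at 0 min. On the lower side PHO84 had −2.97 ± 0.23 and −1.98 ± 0.23 (adjusted p = 0.00437 and 0.0115, limma), with −1.26 and −1.29 already at 0 min. RRP12 had −1.69 ± 0.21 and −2.07 ± 0.21 (adjusted p = 0.00784 and 0.0096, limma), after −0.73 and −0.35 at 0 min. Between the WT strains, with no inhibitor, YPT53, RCN2 and YPS1 were at 1.32, 1.14 and 1.03, and PHO84 and RRP12 at −0.78 and −0.56. For the lists, counts are set against all features, of which 10.4% and 7.47% were called higher and 8.31% and 4.68% lower. On this footing 26 of 51 general stress genes were called higher with Ypk1 inhibited and 25 with Ypk2 inhibited, and none lower. Ribosome biogenesis genes were called lower in 62 and 44 of 100 cases and higher in 1 and 0. Cell wall integrity genes were called higher in 10 and 12 of 34 cases and lower in 1 and 0. The difference between the kinases at 30 and 60 min passed for 0 features (limma; 705 at an unadjusted p under 0.05, smallest adjusted p = 0.296), which does not show that the kinases act alike.

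**Figure D5:**
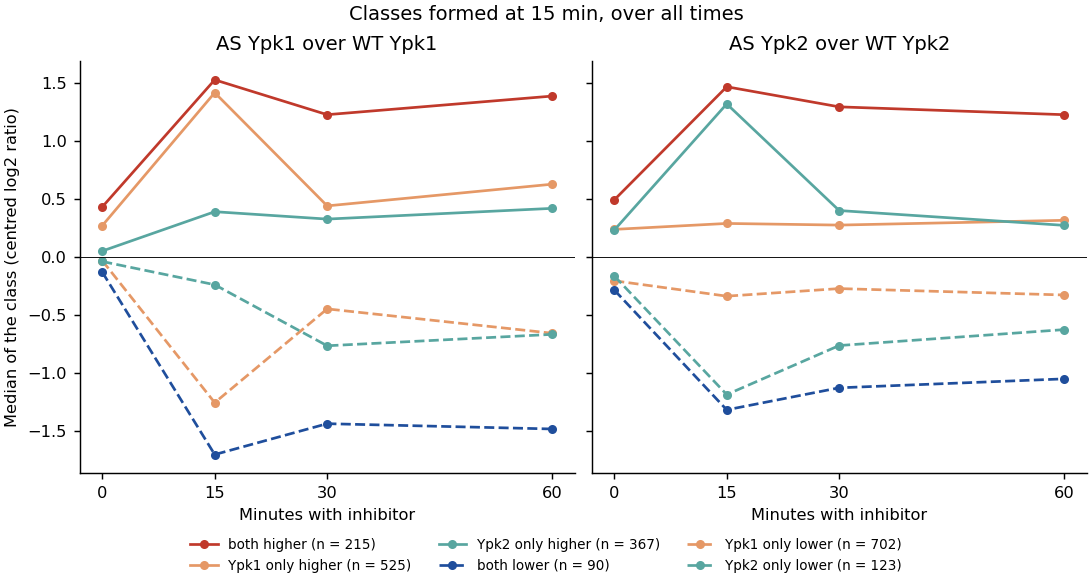
Median centred log2 ratio of AS over WT for each class formed at 15 min, against minutes with inhibitor, in the Ypk1 series (left) and the Ypk2 series (right); solid lines are higher classes and dashed lines lower classes, and the 15 min points chose the classes. The shared higher class keeps medians of 1.23 to 1.39 at 30 and 60 min, while the Ypk1-only and Ypk2-only higher classes are at 0.63 or less on all later arrays.

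The ratio at 15 min was also set against the mean of 30 and 60 min over both kinases, with kinase as a covariate. No feature passed (limma, 6220 features; 799 at an unadjusted p under 0.05, smallest adjusted p = 0.177). The genes below are given as values that did not pass. Higher at 15 min than later on both kinases, beside AAD10 and ATG14, were MAD2 (YJL030W), a spindle checkpoint protein, at 3.06 and 1.62, POB3 (YML069W), a histone chaperone subunit, at 3.87 and 1.20, SNF2 (YOR290C), the chromatin remodelling ATPase, at 1.90 and 1.76, and YJL028W at 1.69 and 1.25. SNF2 lay between −0.48 and 0.04 at all other times. Other genes were lower at 15 min than later. KXD1 (YGL079W), a subunit of an endosomal complex, had 2.13 and 1.06 at 0 min and 1.85 and 2.00 at 15 min, against 5.38 and 4.74 in the Ypk1 series and 4.05 and 4.12 in the Ypk2 series at 30 and 60 min. It also had 2.90 between the WT strains. SNZ1 (YMR096W), an enzyme of vitamin B6 synthesis, had 0.42 and 0.71 at 15 min, against 3.13 and 2.96, and 1.71 and 2.92 later. YHR054C had 1.16 and 1.54 at 15 min, against 2.79 to 3.33 later. SCY1 (YGL083W) was at −1.38 and −1.39 at 15 min and between 0.06 and 0.59 later. YMR316C-A and YDL242W completed the list, at −1.42 and −1.29 on the Ypk1 array and −2.39 and 0.24 on the Ypk2 array.

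The transcripts of the kinases' own pathway were looked at by list. Of 20 genes of TORC2 and Ypk signalling, 2 were higher on both arrays (against 3.43% of all features), YPK2 and RHO1 (YPR165W), the GTPase of wall synthesis, which had 0.36 and 1.49 at 0 min, and 1.43 on the Ypk1 array and 2.07 on the Ypk2 array at 15 min. The list's medians were 0.11 and 0.26 at 15 min, became −0.41 and 0.06 without centring, and reached 0.72 and 0.38 at 60 min. At 30 and 60 min 4 of the 20 were called higher in the Ypk1 series (against 10.4% of all features) and 3 in the Ypk2 one (against 7.47%). None was called lower. ORM2 (YLR350W), an inhibitor of sphingolipid synthesis, was at 0.99 and 1.63, just short of the threshold on the Ypk1 array. It was called higher at the later times (2.05 ± 0.24 and 2.05 ± 0.24, SE, limma, adjusted p = 0.00737 and 0.0116). Its paralog ORM1 (YGR038W) was at 1.40 and 0.32 at 15 min and did not pass later (−0.29 and −0.40). Of 25 sphingolipid synthesis genes, LAC1 (YKL008C), a ceramide synthase subunit, alone passed on both arrays (against 1.44% of all features lower on both and 3.43% higher). It was at −1.68 on the Ypk1 array and at the threshold on the Ypk2 array. At the later times it was called lower in the Ypk1 series only (−1.31 ± 0.27 against −0.50 ± 0.27, SE, limma, adjusted p = 0.0232 and 0.259). The difference was not called (limma, adjusted p = 0.465). SUR1 (YPL057C) was at 0.90 and 1.56, and ELO1 (YJL196C), a fatty acid elongase, at 1.19 and 0.66. The medians of the sphingolipid list were 0.13 and −0.02, near those of all features.

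The genes nearest the threshold on either side were named as well. GRX1 (YCL035C) and CCW14 (YLR390W-A) entered the shared higher class with a smaller ratio of 1.00, and VMA13 (YPR036W) and CDC36 (YDL165W) stayed outside with 0.99. LAC1 and RPA49 (YNL248C) entered the lower class by a similar margin, and NMD2 (YHR077C) and DBP10 (YDL031W) stayed just outside it.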

How the data were processed

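The authors deposited 1 log2 ratio per feature and array, Cy5 over Cy3, and the scale was read as log2 because all of them lie on a grid of 0.001 once turned back into ratios. Scanner, array design and normalization are not given in the sources used here. The 6268 features were matched by systematic name to the R64 gene table (5777 matched, 491 kept the table's name), which was used for names and gene order only. Each array was centred on its median. Classes used a threshold of 1, and 2 features lacked a value at 15 min. Tests at 30 and 60 min used limma (version 3.58.1, under R 4.3.3) with 1 mean per kinase (2 residual degrees of freedom, Benjamini-Hochberg, 0.05), and 15 min against later times with 3 residual degrees of freedom. Both fits were tested on simulated data. A single array per condition limits the precision, and intensities were not used here.

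The classes and the 43 gene lists were chosen with earlier results of these data known. Named genes followed a rule: the kinase genes, the 12 shared genes each way, 6 opposite genes and 8 genes per array and side furthest past the threshold, the 6 each way for 15 min against later, up to 4 per list and those nearest the threshold. BAG7, RPC40, MKK1, MKK2 and RPA49 as list members, and LEU2, were named after their values were seen. Promoter sequences were not analysed here. Alternatives were no centring, scaling to 1 spread, quantile normalization, subtraction of 0 min, a threshold of 1.5 and named features only.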

Additional observations from a re-analysis of the deposited data

Results flagged for a closer look

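The 28 genes past the threshold at 15 min stood out because their ratios had opposite signs on the 2 kinases' arrays. In the Ypk1 series, 9 of the 28 were already past it with that sign at 0 min (32.1%, against 4.39% of all features higher and 1.6% lower). In the Ypk2 series none was. The difference was not tested, since each kinase has 1 array at 15 min. The 6 leading genes had these ratios of AS over WT on the Ypk1 and Ypk2 arrays: YIL108W −1.65 and 2.59, AGE1 −1.60 and 2.14, OPT2 −1.38 and 2.81, RPS6B 1.85 and −1.50, RPS0B 2.30 and −1.29, and GDH1 1.58 and −1.26. At 30 and 60 min the 5 of these with values on all later arrays did not pass in either series (limma).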

How the results depend on the processing

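Without centring, 79 features were higher on both arrays and 258 lower, 44 were opposite and 1884 passed on the Ypk1 array only. Of the 215 shared higher features 79 remained. All 90 shared lower ones remained, which was fixed in advance because both deposited medians were negative. Arrays scaled to a common spread gave 687 features on the Ypk1 array only and 841 on the Ypk2 array only, and quantile normalization 780 and 779, so the larger number on the Ypk1 array depends on the spread of the arrays. Subtraction of 0 min left 105 shared higher features, 83 of them among the 215, and 93 shared lower ones, 44 of them among the 90, and gave 60 opposite ones. At a threshold of 1.5, 52 were higher on both, 19 lower, 3 opposite, 521 on the Ypk1 array only and 213 on the Ypk2 array only. At 30 and 60 min, calls in the Ypk2 series numbered 756, against 1355 without centring, 1311 scaled and 1240 by quantiles, and the 0 min baseline left 4 for Ypk1 and 0 for Ypk2 (limma; 1004 and 707 unadjusted). The kinase difference and 15 min against later had 0 calls under every alternative run (270 to 823 and 299 to 839 unadjusted). No paired analysis was possible because each condition has 1 array and the labels number no replicates; for the same reason no replicate could be left out. Unknown normalization, dye bias and the spread between cultures could not be assessed.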

Other observations

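Several gene groups outside stress and ribosome synthesis had strong shared members at 15 min. CIT2 (YCR005C), the peroxisomal citrate synthase of the retrograde response, was at 1.53 on the Ypk1 array and 2.38 on the Ypk2 array. Its later ratio passed in both series (3.04 ± 0.24 and 2.79 ± 0.24, SE, limma, adjusted p = 0.00437 and 0.00659). BAR1 (YIL015W), the protease that degrades alpha factor, was at 1.77 and 1.60. It was the single gene of 11 mating type genes past the threshold on both arrays (against 3.43% of all features higher on both). PDR5 (YOR153W), a drug exporter, was at 1.44 and 1.84, and HAC1 (YFL031W), the factor of the unfolded protein response, at 1.05 and 1.78. ADR1 (YDR216W) and CAT8 (YMR280C), activators of growth on non-fermentable carbon, were at 1.91 and 1.89 on the Ypk1 array and 1.15 and 1.00 on the Ypk2 array. These genes were above 1 on all 4 later arrays. In the Ypk2 series CIT2 was already at 1.46 and PDR5 at 1.23 at 0 min. All other 0 min values of these genes lay between −0.57 and 0.91. Between the WT strains, with no inhibitor, PDR5 was at 1.16 and ADR1 at 1.21, and the rest between −0.21 and 0.97.

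Others were brief. ADE17 (YMR120C), an enzyme of purine synthesis, was at 4.26 and 1.43 at 15 min and between −0.13 and 0.67 later, and MDH1 (YKL085W), mitochondrial malate dehydrogenase, was at 1.92 and 1.80 and between −0.17 and 0.60 later. Neither passed at 30 and 60 min. The 8 core histone genes had medians of 0.86 and 0.80 at 0 min, and 0.26 and 0.46 at 15 min.

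Neighbours on the chromosome were counted in the R64 gene order of 5758 features. Of the genes lower on the Ypk1 array only, 231 of 671 (34.4%) had a chromosomal neighbour in the same class, which holds 11.7% of the ordered features. The figures were 108 of 453 (23.8%, class share 7.87%) for genes higher on the Ypk1 array only and 58 of 345 (16.8%, class share 5.99%) for genes higher on the Ypk2 array only. For the shared classes they were 19 of 192 higher genes (9.90%, class share 3.33%) and 6 of 87 lower genes (6.90%, class share 1.51%), and for genes lower on the Ypk2 array only 7 of 112 (6.25%, class share 1.95%). A gene has up to 2 neighbours, and what lies behind these shares was not tested.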
